A study of Mus musculus with 24 samples.

Results

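Latexin, encoded by the mouse gene Lxn, was measured by 1 probe, ILMN_2694275, the single probe annotated to Lxn among the 45281 probes of the Illumina mouse WG-6 v2 array. It is 1 of 19057 genes to which the array's probes are annotated; it was taken by annotation alone, and with 1 probe no comparison between Lxn probes was possible. The array series profiled total RNA of 4 sorted bone marrow populations from 2 inbred mouse strains, in 8 groups of 3 arrays. The groups were D2 and B6 LSK cells (lineage-negative Sca-1+ Kit+ cells, which hold the stem and multipotent cells), D2 and B6 committed L-S-K+ progenitors, D2 and B6 Gr1+ myeloid cells, and D2 and B6 Ter119+ erythroid cells. D2 mice carry the strain label DBA2 and B6 mice the label C57Bl/6. The labels name no transgene or treatment for either strain. Age, sex and pooling of animals were not given in the sources used here. No label states whether the 3 arrays of a group stand for 3 animals, so p-values measure the spread between these arrays, which may be technical.

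Latexin is a cytosolic protein inhibitor of A-type and B-type carboxypeptidases, zinc enzymes that remove amino acids from the C-terminal end of peptides. In mice, Lxn lies in a region of chromosome 3 that was mapped as a regulator of the difference in stem cell number between B6 and D2 marrow, and loss of latexin in mice enlarges the stem cell pool. It is therefore known as a negative regulator of the number of hematopoietic stem cells.

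The sequence around the start of the gene is shown because the strain comparison below concerns the transcript made from it. RefSeq on GRCm38.p6, an assembly of the B6 strain, places the 300 bases from 250 before to 50 after the Lxn start at chr3:67463858-67464157 on the minus strand, printed here 5′ to 3′ with the GC box (GGGCGG) in capitals.
Lxn promoter: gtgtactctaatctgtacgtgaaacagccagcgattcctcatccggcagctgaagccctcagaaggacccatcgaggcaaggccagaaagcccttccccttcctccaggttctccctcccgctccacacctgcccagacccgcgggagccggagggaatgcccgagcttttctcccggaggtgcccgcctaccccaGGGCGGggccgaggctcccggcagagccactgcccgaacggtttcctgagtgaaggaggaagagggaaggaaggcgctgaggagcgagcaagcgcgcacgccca
The stretch was 65% G and C and held 21 CpG dinucleotides, against a median of 7 over the 32851 mouse promoters of the same length, of which 24.8% held as many or more. Both strands were searched for 7 motifs. GGGCGG, the GC box of Sp-family factors, matched once, with 48 bases between it and the start, and 35.7% of all promoters held it. The E-box CANNTG matched as CAGCTG, 198 bases before the start, and as CACCTG, 118 bases before it, and 72.3% of promoters held at least 1 match. No match was found for AGATAA, bound by GATA-family factors and held by 11.2% of promoters. Nor was one found for TGTGGT, bound by RUNX factors (16.8% of promoters), or for CCGGAA, bound by ETS factors (14.9%). The CCAAT box, in 37.4% of promoters, and the TATAAA box, in 13.6%, were also without a match. No matches overlapped. The D2 sequence of this stretch was not used here.

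The Lxn probe was detected on all 24 arrays, with a largest detection p-value of 0.00321, the share of negative control probes at least as bright. Its deposited raw intensity lay between 96 and 370.8, while all probes spanned 67.9 to 46120, so Lxn was close to background in intensity. It still lay above the 75th percentile of the probes on every array, for example at 97.5 against 91.5 on D2 Ter119+ replicate 1. Levels below are log2 intensities after background correction with an offset of 16 and quantile normalization, and a difference of 1 is a factor of 2 on that scale. The offset shrinks differences between dim values. Lxn was tested as 1 of 7925 detected genes by limma, with p-values from its moderated test adjusted over all of them (Benjamini-Hochberg) and called at 0.05.

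Arrays of 1 group correlated with r between 0.922 and 0.993. The share of probes detected per array averaged 21.3% over D2 arrays and 24.7% over B6 arrays, and D2 LSK replicate 2 stood apart with 12.6%. Summed marker intensities were highest in the population each list stands for, though not every single marker was. Over the 6 tested of 9 erythroid markers, summed intensities were 60090 to 60620 on D2 Ter119+ arrays and 48320 to 52190 on B6 Ter119+ arrays, and at most 4645 on any other array. Over the 8 tested of 10 Gr1+ myeloid markers they were 120100 to 134400 in D2 and 126600 to 129100 in B6 Gr1+ cells. These myeloid markers also gave 45440 to 52840 on D2 and 32330 to 46440 on B6 Ter119+ arrays. Over the 4 tested of 10 LSK markers, sums were 2595 to 3799 in D2 and 2638 to 3595 in B6 LSK cells, and at most 1426 elsewhere. Over the 7 committed progenitor markers they were 27380 to 42900 in D2 and 37200 to 43410 in B6 progenitors, and up to 26930 on D2 Gr1+ arrays. Between progenitors and LSK cells, Kit, which is on both lists, was called lower in progenitors (-0.79). The progenitor marker Gata2 (-0.28) and the LSK marker Mecom (-0.05) were not called.

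Averaged over strains, Lxn was highest in LSK cells and lowest in Ter119+ cells. Within D2, LSK cells were not the highest population under median or 75th percentile scaling, where D2 LSK replicate 2 was the lowest LSK array. Averaged over cell types Lxn was lower in D2 than in B6 mice. Among single cell types the strain difference passed the test in Ter119+ cells. In LSK cells the probe read 6.77, 7.23 and 6.82 on the D2 arrays, against 7.40, 7.13 and 7.29 on the B6 arrays. The groups overlapped, because D2 LSK replicate 2 lay above the lowest B6 array. D2 LSK replicate 2 was high only after quantile normalization. Its raw intensity of 96 was the lowest in LSK cells, where B6 arrays read 201.2 to 370.8. Under median and 75th percentile scaling it was also the lowest LSK array, at 4.96 and 5.24. The raw groups still overlapped, because D2 LSK replicate 3 at 207.3 lay above B6 LSK replicate 2 at 201.2. In progenitors the probe read normalized levels of 6.29, 6.48 and 6.17 in D2, against 6.11, 6.67 and 6.41 in B6. All D2 progenitor values fell inside the B6 range. In Gr1+ cells it read 6.46, 6.49 and 6.34 in D2, against 6.63, 6.79 and 7.11 in B6. Every D2 Gr1+ array was below every B6 Gr1+ array. In Ter119+ cells it read 5.10, 5.18 and 5.60 in D2, against 6.37, 6.15 and 6.34 in B6, and these groups were also apart. The raw intensities gave the same separation in Ter119+ cells, at 97.5, 103.5 and 115.3 in D2, against 226.4, 125.9 and 237.6 in B6.

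**Figure D1:**
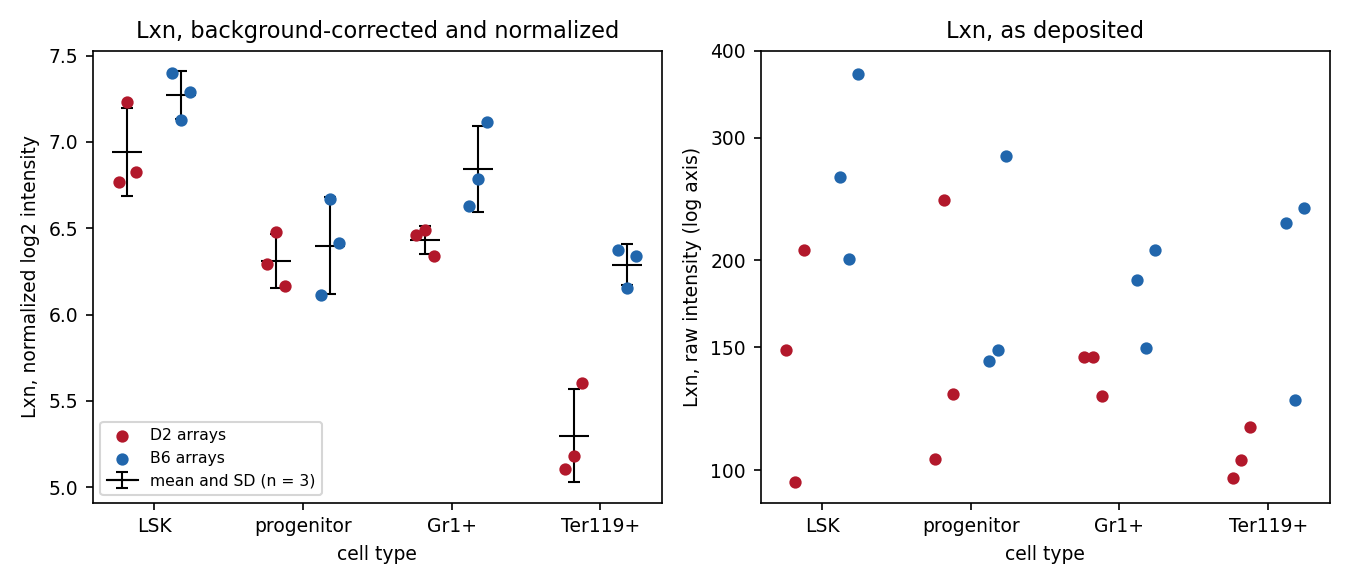
Lxn on each of the 24 arrays, as normalized log2 intensity with group mean and SD (left) and as deposited raw intensity on a log axis (right), for D2 (red) and B6 (blue) arrays of each cell type. The 3 D2 Ter119+ arrays are the lowest on the left, at 5.10 to 5.60, and the 3 B6 LSK arrays lie at 7.13 to 7.40.

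Averaged over the 4 cell types, D2 cells had 1.37-fold less Lxn than B6 cells, a log2 difference of -0.45 ± 0.0925 (SE) (adjusted p = 0.000745, limma). In this comparison 20.7% of the 7925 genes were called. A two-sided exact permutation of the strain labels within each cell type gave p = 0.000788 over 160000 arrangements, and 0.00867 after adjustment over the 11 permutation tests of Lxn. Of all genes tested, 11.7% had a larger absolute averaged difference than Lxn. In these bulk samples, fewer cells that make a transcript and less of that transcript per cell cannot be told apart.

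Taken cell type by cell type, Lxn averaged 5.30 ± 0.269 in D2 and 6.29 ± 0.119 in B6 Ter119+ cells (SD, n = 3 each), a difference of -0.99 with a 95% interval of -1.37 to -0.61, or 1.99-fold lower in D2 (adjusted p = 0.000574, limma). Here 17.1% of genes were called, and 6.7% of genes had a larger absolute difference. In Gr1+ cells the means were 6.43 ± 0.0799 in D2 and 6.84 ± 0.246 in B6 (SD, n = 3 each), a difference of -0.41 with a 95% interval of -0.79 to -0.03. Its unadjusted p was 0.0361, and it did not pass after adjustment over all genes (adjusted p = 0.302, limma), in a comparison with 5.67% of genes called. In LSK cells, the population in which latexin was studied as a regulator of stem cell number, the means were 6.94 ± 0.254 in D2 and 7.27 ± 0.137 in B6 (SD, n = 3 each). The LSK difference was -0.33, with a 95% interval of -0.71 to 0.05, and did not pass (adjusted p = 0.332, limma), with 8.34% of genes called. In progenitors it was -0.09, with an interval of -0.47 to 0.30 (adjusted p = 0.956, limma), with 5.59% of genes called. Exact permutation of 3 against 3 arrays cannot go below p = 0.1, and gave 0.1 in Ter119+ and Gr1+ cells, 0.2 in LSK cells and 0.7 in progenitors.

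Whether the strain difference itself varied between cell types was tested with a moderated F test, which gave an unadjusted p of 0.0153 and an adjusted p of 0.152 (limma), with 5.78% of genes called. None of the 6 pairs of cell types differed in their strain difference after adjustment. Among all genes, the strain difference was called as different from that in LSK cells for 0.972% in progenitors, 2.76% in Gr1+ cells and 4.58% in Ter119+ cells. It was called for 1.93% between Gr1+ cells and progenitors, 1.88% between Ter119+ cells and progenitors and 3.04% between Gr1+ and Ter119+ cells. For Lxn the pair furthest apart was Ter119+ cells and progenitors, whose strain differences were -0.90 ± 0.262 apart (SE; adjusted p = 0.0898, limma). The larger difference in Ter119+ cells was thus not shown to be particular to them.

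**Figure D2:**
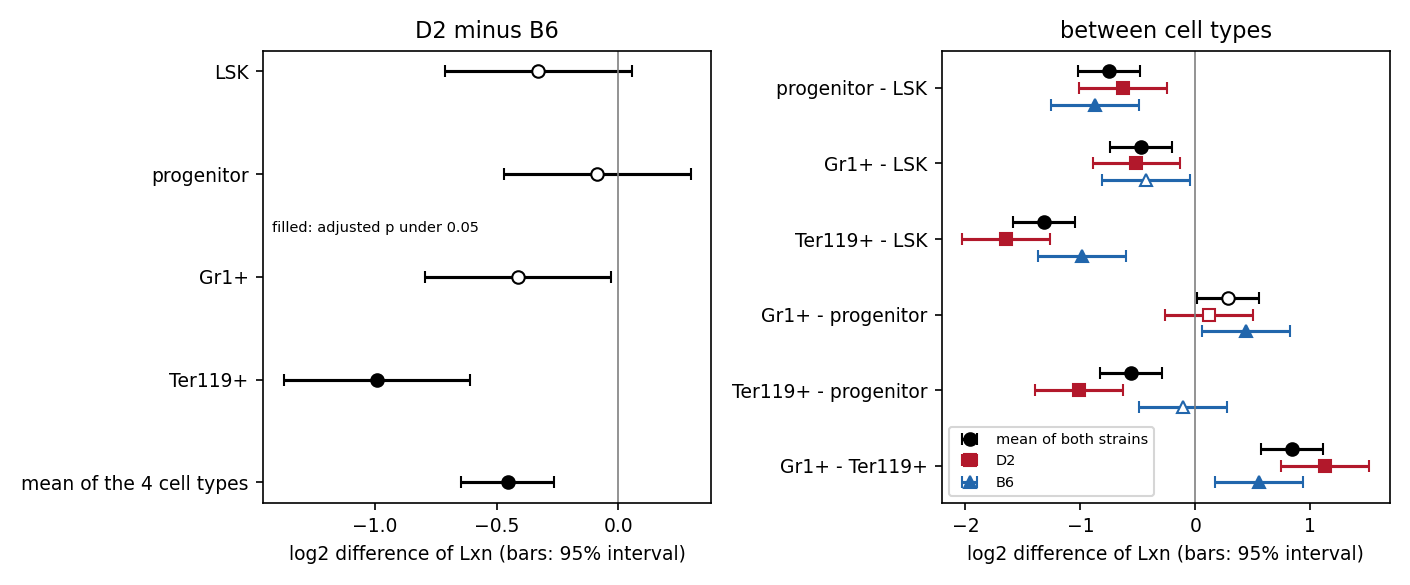
Log2 differences of Lxn with 95% intervals, D2 minus B6 in each cell type and averaged (left), and between cell types, averaged over strains (black circles), in D2 (red squares) and in B6 (blue triangles) (right). Filled symbols have an adjusted p under 0.05: on the left those are Ter119+ cells, at -0.99, and the average, at -0.45.

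Other readings moved with strain on the same arrays, where 9.21% of all genes were called higher and 11.5% lower in D2 on average. On average over cell types, 5 of the 8 tested Gr1+ myeloid markers were higher in D2, S100a9 by 0.86, Lcn2 by 0.81, Camp by 0.72, Ltf by 0.69 and S100a8 by 0.62, and none was lower. Their summed intensities were 11460 to 30490 on D2 and 10700 to 13790 on B6 LSK arrays, and 8313 to 32230 on D2 and 4405 to 5159 on B6 progenitor arrays. Of the 4 tested T and NK cell markers, Cd3d was higher in D2 on average by 1.03, while Cd3e and Cd3g were lower (-0.54 and -0.30). Taken by cell type, Cd3d was called in Gr1+ cells only (3.14). Cd3e and Cd3g were called only in Gr1+ cells (-1.60 and -0.51) and Ter119+ cells (-0.60 and -0.61). Of the 4 tested mast cell and basophil markers, Mcpt8 was higher (0.74) and Hdc lower (-2.58), and of the 2 tested stromal and endothelial markers Cxcl12 was lower (-0.34). D2 Ter119+ arrays detected 23.1% ± 1.92 of probes and B6 Ter119+ arrays 26.4% ± 1.30 (SD, n = 3 each). In LSK cells the shares were 20.02% ± 6.65 in D2 and 26.3% ± 0.489 in B6 (SD, n = 3 each). With the detected share as a covariate, an alternative added after seeing the data, Lxn differed by -1.03 in Ter119+ cells (adjusted p = 0.000489, limma) and by -0.49 on average (adjusted p = 0.00197, limma). Without D2 LSK replicate 2 the LSK difference was -0.47 (adjusted p = 0.188, limma). In Ter119+ cells, where 17.1% of all genes were called between strains, 3 of 7 committed progenitor markers were lower in D2. These were Kit (-0.70), Elane (-1.28) and Prtn3 (-1.11). Summed over the 7, intensities were 8130 to 12440 in D2 and 11430 to 14670 in B6. Of the 4 tested B cell markers 2 were higher in D2, with sums of 4286 to 5998 in D2 and 3507 to 4317 in B6, and of the 4 tested T and NK cell markers 2 were lower, with sums of 178.8 to 234 in D2 and 164.3 to 237 in B6. Ermap, 1 of the 6 tested erythroid markers, was lower in D2 Ter119+ cells (-1.05), as were Hdc (-1.49) and Cxcl12 (-0.81), and Mcpt8 was higher (1.67). Cpa3 (0.14) and Fcer1a (0.02) were not called there. Summed mast cell and basophil markers were 795.9 to 1632 in D2 and 1451 to 1970 in B6 Ter119+ cells. Hdc was the brightest of these markers, at a mean of 8.68 in D2 and 10.17 in B6. The mean log2 level of the 4 markers was 8.06 in D2 and 7.98 in B6. The 2 stromal and endothelial markers summed to 80.29 to 134.7 in D2 and 90.17 to 99.65 in B6 Ter119+ cells. The 4 B cell markers were detected on all arrays of both Ter119+ groups, and 1 of the 4 T and NK cell markers on no D2 Ter119+ array. The part of these cells in the Lxn differences was not tested.

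The sign of the strain difference was the same under every scaling tried, and its size and call were not. Scaling each background-corrected array by its median or by its 75th percentile, in place of quantile normalization, moved the median of all genes to -0.91 or -0.67 in LSK cells and to -0.41 or -0.22 in Ter119+ cells. Lxn in Ter119+ cells was then -1.60 (adjusted p = 0.165, limma) or -1.41 (adjusted p = 0.0797, limma), and -1.19 relative to the median of all genes in both. Without background correction it was -0.46 and still passed (adjusted p = 0.00301, limma). The averaged difference passed under each of these, between -1.07 and -0.25. In that contrast the median of all genes moved to -0.48 under median scaling and to -0.34 under 75th percentile scaling. Relative to that median, averaged Lxn was -0.60 in both.

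**Figure D3:**
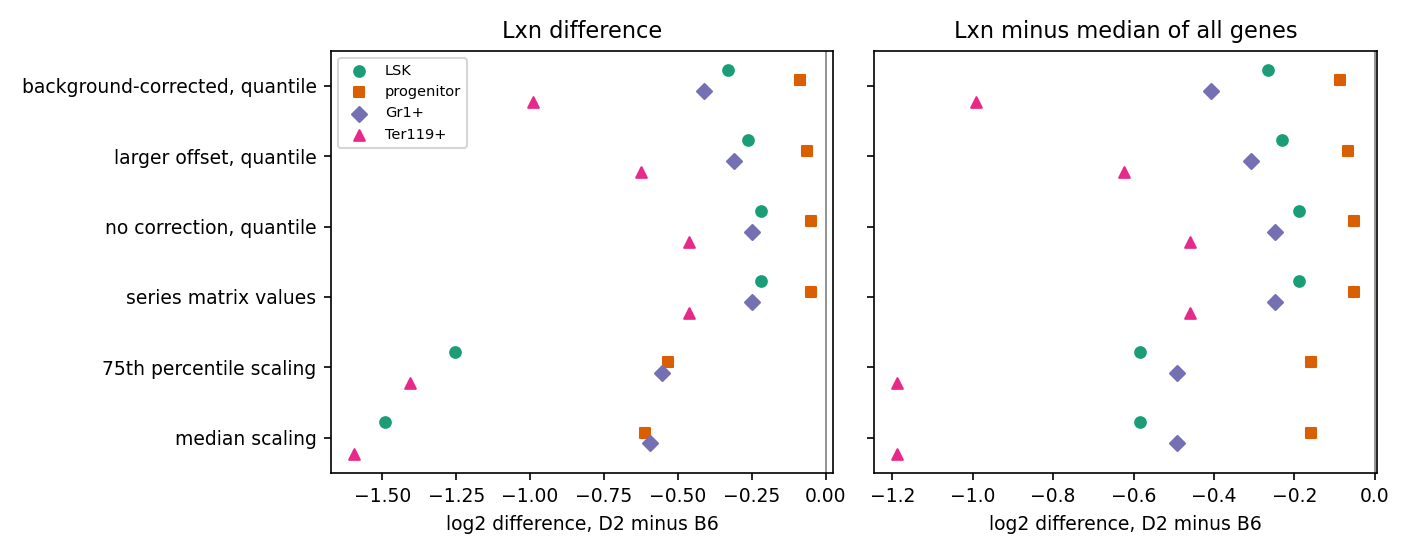
The D2 minus B6 difference of Lxn (log2) in each cell type under 6 ways of correcting and scaling the arrays (left), and the same after subtracting the median difference of all genes (right). All points lie below 0, and Ter119+ cells (triangles) have the most negative value in every setting, from -0.46 without background correction to -1.60 with median scaling.

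Between cell types, averaged over strains, Lxn was lower in each of the other 3 populations than in LSK cells. In Ter119+ cells it was 2.49-fold lower than in LSK cells, a difference of -1.31 ± 0.131 (SE; adjusted p = 7.95e-09, limma), and every Ter119+ array was below every LSK array. Of all genes, 56.7% were called in this comparison, and 13.9% had a larger absolute difference. The same comparison gave -1.64 in D2, or 3.13-fold (adjusted p = 1.08e-07, limma; 45.4% of genes called), and -0.98 in B6, or 1.98-fold (adjusted p = 0.000132, limma; 45.3% called). In progenitors Lxn was lower than in LSK cells, with a difference of -0.75 ± 0.131 (SE; adjusted p = 6.34e-05, limma), again with no overlap of arrays, where 42.8% of genes were called. Within strains this was -0.63 in D2 (adjusted p = 0.0135, limma; 27.1% called) and -0.87 in B6 (adjusted p = 0.000949, limma; 28% called). In Gr1+ cells Lxn was lower than in LSK cells, with a difference of -0.47 ± 0.131 (SE; adjusted p = 0.00299, limma), with overlap between arrays, where 67% of genes were called. Within strains it was -0.51 in D2 (adjusted p = 0.0219, limma; 56.3% called) and -0.43 in B6 (adjusted p = 0.0549, limma; 53.3% called). The direction within D2 depended on the scaling. Under median scaling the mean level was 6.19 in D2 Gr1+ cells and 6.18 in D2 progenitors, against 6.16 in D2 LSK cells. Under 75th percentile scaling it was 6.27 in D2 Gr1+ cells and 6.18 in D2 progenitors, against 6.26 in D2 LSK cells. The D2 LSK means included replicate 2, with 12.6% of probes detected, at 4.96 and 5.24 under these scalings. D2 LSK replicates 1 and 3 lay above the D2 Gr1+ and progenitor means. They read 6.37 and 7.14 under median scaling and 6.48 and 7.05 under 75th percentile scaling. In B6 the LSK mean stayed the highest under both, at 7.65 and 7.51.

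The 3 more mature populations also differed among themselves. Ter119+ cells were below progenitors, with a difference of -0.56 (adjusted p = 0.000801, limma; 56.4% of genes called). That difference was -1.01 in D2 (adjusted p = 9.82e-05, limma; 44.5% called) and -0.11 in B6 (adjusted p = 0.677, limma; 41.4% called), and the difference between the strains is the one tested above. Gr1+ cells were above Ter119+ cells by 0.84 (adjusted p = 6.36e-06, limma; 58.7% called), by 1.13 in D2 (adjusted p = 2.12e-05, limma; 43.5% called) and by 0.55 in B6 (adjusted p = 0.0157, limma; 49.3% called). Gr1+ cells and progenitors differed by 0.28, which did not pass (adjusted p = 0.0599, limma; 68.7% called). It passed in B6, at 0.44 (adjusted p = 0.0441, limma; 56.8% called), and not in D2, at 0.12 (adjusted p = 0.613, limma; 56.9% called). With strain as stratum, exact permutation gave p = 0.005, the smallest it allows, for each of the 3 populations against LSK cells and for Gr1+ against Ter119+ cells (0.011 adjusted over the 11 tests), 0.03 for Ter119+ cells against progenitors (0.055 adjusted) and 0.045 for Gr1+ cells against progenitors (0.0707 adjusted). Under median scaling none of these 6 comparisons passed, with adjusted p between 0.103 and 0.993, and under 75th percentile scaling Ter119+ against LSK cells passed (-0.93, adjusted p = 0.027, limma). Markers of other cells moved with these comparisons: summed B cell markers were 3507 to 5998 on Ter119+ arrays and at most 488.8 on the others, and their part was not tested.

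Ordered by mean, the 8 groups ran from B6 LSK at 7.27 over D2 LSK at 6.94, B6 Gr1+ at 6.84, D2 Gr1+ at 6.43, B6 progenitors at 6.40, D2 progenitors at 6.31 and B6 Ter119+ at 6.29 to D2 Ter119+ at 5.30. The highest and lowest group means lay 3.93-fold apart, and SDs within groups were 0.0799 to 0.281. Of the 7 pairs of neighbours in this order, 1 differed past the test, D2 Ter119+ against B6 Ter119+. The other 6 neighbouring pairs did not pass after adjustment, though in the pair of D2 Gr1+ and B6 Gr1+ cells the arrays did not overlap. Under median scaling D2 LSK cells lay below D2 Gr1+ cells and D2 progenitors in the order, and under 75th percentile scaling below D2 Gr1+ cells. In both, D2 LSK replicate 2 was the lowest LSK array. Of all 28 pairs of groups, 18 passed, each adjusted over all genes tested; in single pairs 5.59% to 61.6% of all genes were called. Under median scaling 2 pairs passed and under 75th percentile scaling 4.

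The closest relative of latexin in the mouse genome is Rarres1, a retinoid-responsive gene next to Lxn. Its 2 probes did not pass the detection filter, and it was not tested. Of 8 A-type and B-type carboxypeptidases, the enzymes that latexin inhibits, 6 were on the array and 1 passed the filter. That was Cpa3, the carboxypeptidase of mast cell granules, and it was higher in D2 than in B6 progenitors by 0.99 ± 0.271 (SE; adjusted p = 0.0276, limma). Its other detected probe gave 0.96 in the same comparison and did not pass (adjusted p = 0.0906 over all probes, limma), and leaving out any 1 of 5 arrays ended the call, with adjusted p of up to 0.215. Under median and 75th percentile scaling the difference was 0.36 and 0.43 and did not pass (adjusted p = 0.781 and 0.68, limma), nor did it without the detection filter (adjusted p = 0.0853, limma) or without the 6 arrays under 20% detected (adjusted p = 0.303, limma). Cpa3 was not called between strains on average (0.12, adjusted p = 0.568, limma). Against LSK cells, Cpa3 was higher by 2.22 in progenitors (adjusted p = 2.13e-09, limma) and by 2.44 in Ter119+ cells (adjusted p = 1.26e-10, limma). Of all genes, 42.8% and 56.7% were called in these comparisons. In Gr1+ cells, where Lxn was also lower than in LSK cells, Cpa3 differed by -0.34 and did not pass (adjusted p = 0.12, limma).

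Of 13 other metallocarboxypeptidases 11 were on the array and 2 were tested. Cpm, a membrane-bound enzyme that trims arginine and lysine, was higher in D2 by 1.66 ± 0.271 in Ter119+ cells (SE; adjusted p = 0.000115, limma) and by 0.61 on average (adjusted p = 0.00179, limma). Under median and 75th percentile scaling the Ter119+ difference was 1.05 and 1.24 and did not pass (adjusted p = 0.32 and 0.0862, limma). The second probe of Cpm gave 0.85 in Ter119+ cells (adjusted p = 0.00259 over all probes, limma). Cpm was higher in Ter119+ than in LSK cells by 4.07 (adjusted p = 1.17e-14, limma), in a comparison where 56.7% of all genes were called. Cpxm1, a carboxypeptidase-like protein without enzyme activity, was higher in D2 LSK cells by 1.12 ± 0.286 (SE; adjusted p = 0.012, limma), and without D2 LSK replicate 2 by 0.65 (adjusted p = 0.0977, limma). From the LSK groups alone the Cpxm1 difference was 1.12 (adjusted p = 0.247, limma), under median and 75th percentile scaling 0.06 and 0.30 (adjusted p = 0.855 and 0.327, limma), and with the detected share as covariate 0.58 (adjusted p = 0.208, limma). On average, both of these genes were called higher in D2, in a comparison where 9.21% of all genes were called higher. Under median and 75th percentile scaling the averaged call was lost for Cpm (adjusted p = 0.25 and 0.0934, limma) and for Cpxm1 (adjusted p = 0.323 and 0.0793, limma), and for Cpxm1 also with the detected share as covariate (adjusted p = 0.283, limma).

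Of 4 genes reported as partners or regulators of latexin or as acting downstream of it, Thbs1 and Nr3c1 were not detected. Hmgb2, a chromatin protein reported in mice to repress Lxn, was not called between strains (-0.15 on average, adjusted p = 0.552, limma). Hmgb2 was higher than in LSK cells by 0.60 in progenitors (adjusted p = 0.0369, limma), by 1.70 in Gr1+ cells (adjusted p = 5.67e-07, limma) and by 1.37 in Ter119+ cells (adjusted p = 1.7e-05, limma). Of all genes, 42.8%, 67% and 56.7% were called in these comparisons. A link between Hmgb2 and Lxn was not tested. Rps3, a ribosomal protein reported to bind latexin, read -5.70 between D2 and B6 on average on the probe used (adjusted p = 3.01e-19, limma), while its second probe read 0.06 (adjusted p = 0.837 over all probes, limma). The probes of Rps3 disagree, and no direction is given for it.

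Of the 12 protein-coding genes nearest to Lxn, 6 on each side, 10 were on the array and 5 were tested. On average over cell types 1 was called higher in D2 and 1 lower, against 9.21% and 11.5% of all genes, and the median of the 5 was 0.18, against -0.01 over all genes. Gfm1, a mitochondrial translation elongation factor, overlaps Lxn on the opposite strand and was the neighbour that was lower in D2, with a difference of -0.34 ± 0.0888 on average (SE; adjusted p = 0.00712, limma) and of -0.59 in Ter119+ cells (adjusted p = 0.0242, limma). Its probe was detected on 10 of 24 arrays. The averaged call of Gfm1 was lost without the 6 arrays under 20% detected (-0.28, adjusted p = 0.117, limma) and with the detected share as covariate (-0.29, adjusted p = 0.0506, limma). The Ter119+ call was lost on leaving out any 1 of 4 arrays, with adjusted p of up to 0.124, from the Ter119+ groups alone (adjusted p = 0.125, limma) and under median and 75th percentile scaling (adjusted p = 0.133 and 0.0882, limma). Probe sequences were not used here, so whether the Lxn probe can bind Gfm1 transcripts or spans a base that differs between the strains was not tested. Between Ter119+ and LSK cells Gfm1 differed by 0.21, which did not pass (adjusted p = 0.157, limma).

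Il12a, a cytokine subunit gene on the other side of Lxn, was lower in D2 LSK cells, with a difference of -0.80 ± 0.172 (SE; adjusted p = 0.00298, limma). It was higher in D2 progenitors by 0.65 (adjusted p = 0.0219, limma) and in D2 Ter119+ cells by 1.32 (adjusted p = 6.69e-06, limma), and read 0.47 in Gr1+ cells (adjusted p = 0.142, limma). The progenitor call of Il12a was lost on leaving out any 1 of 4 arrays, with adjusted p of 0.055 to 0.201, from the progenitor groups alone (adjusted p = 0.127, limma) and without the 6 arrays under 20% detected (adjusted p = 0.187, limma). Under median scaling none of these calls held, with adjusted p of 0.113 in LSK cells, 0.957 in progenitors and 0.682 in Ter119+ cells (limma). Under 75th percentile scaling these were 0.0705 in LSK cells, 0.877 in progenitors and 0.457 in Ter119+ cells (limma). Its averaged difference of 0.41 (adjusted p = 0.000991, limma) changed sign under median and 75th percentile scaling, to -0.23 and -0.09. Rsrc1, which encodes a splicing-related protein, gave 0.29 on average (adjusted p = 0.0592, limma), the lysosomal transporter gene Mfsd1 gave -0.05 (adjusted p = 0.801, limma) and Schip1 gave 0.18 (adjusted p = 0.324, limma). None of the 4 tested neighbours other than Gfm1 was lower in D2 on average past the test.

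**Figure D4:**
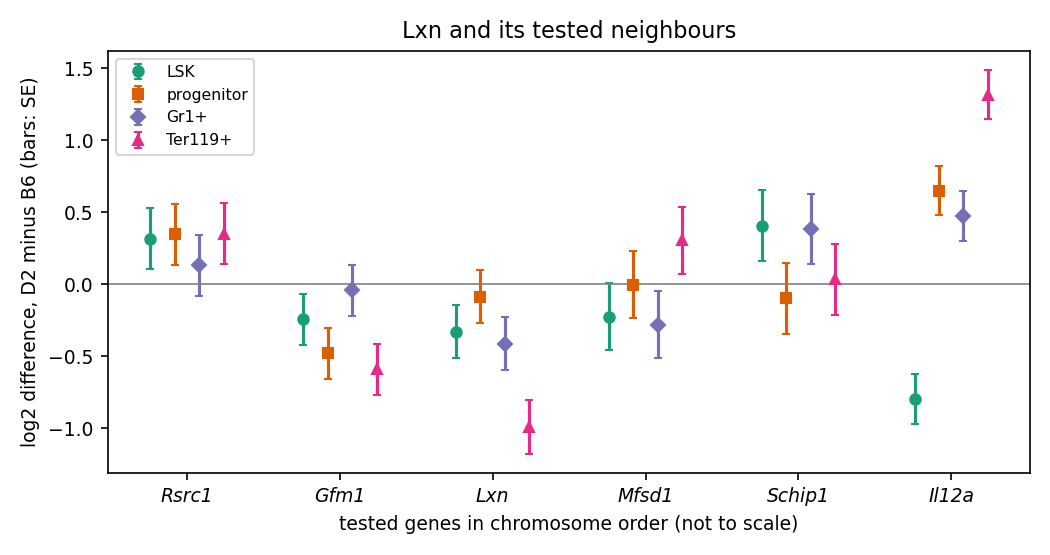
D2 minus B6 differences (log2, with SE) of Lxn and its 5 tested neighbours in chromosome order, for LSK cells (circles), progenitors (squares), Gr1+ cells (diamonds) and Ter119+ cells (triangles). Lxn and Gfm1 lie below 0 in all 4 cell types, and Il12a lies at -0.80 in LSK cells and 1.32 in Ter119+ cells.

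Likeness to Lxn was measured as Pearson's r over the 8 group means, for the 5590 genes whose group means spanned at least 0.5 times the range of Lxn. It is a description: the 8 points share arrays, normalization and depth of detection. The median r was 0.07, and 0.179% of genes exceeded 0.9. The highest values were those of Tmem260 (0.93), which encodes a transmembrane protein, Iqgap2 (0.93), a scaffold protein of the IQGAP family, Setd7 (0.91), a lysine methyltransferase, Fkbp5 (0.91), a co-chaperone of steroid receptors, Slc2a9 (0.91), a urate transporter, and Atp6v1g2 (0.91), a subunit of the vacuolar proton pump.

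On the probe used, Iqgap2 read lower in D2 in every cell type, with differences of -1.13 in LSK cells (adjusted p = 0.000211, limma), -1.23 in progenitors (adjusted p = 9.11e-05, limma), -1.30 in Gr1+ cells (adjusted p = 3.78e-05, limma) and -2.09 in Ter119+ cells (adjusted p = 2.37e-08, limma). Its second detected probe had an r of 0.85 and read -0.14 between strains on average, which did not pass (adjusted p = 0.66 over all probes, limma). The 2 probes of Iqgap2 thus disagree on the strains, and no strain direction is given for it. Tmem260, with 1 detected probe, was lower in D2, with a difference of -0.72 in Ter119+ cells (adjusted p = 0.0152, limma) and of -0.44 on average (adjusted p = 0.00247, limma). Of all genes, 17.1% and 20.7% were called in these comparisons. The choice by likeness to Lxn on the same arrays favours genes that are lower in D2, so these calls are no separate evidence. The averaged call of Tmem260 was kept in all 38 alternatives. Its Ter119+ call was lost without B6 Ter119+ replicate 2 (adjusted p = 0.104, limma), without D2 Ter119+ replicate 3 (adjusted p = 0.0702, limma), from the Ter119+ groups alone (adjusted p = 0.084, limma) and under median and 75th percentile scaling (adjusted p = 0.188 and 0.0903, limma). The other 4 were not called between strains on average. Setd7 had an r of 0.46 over the 24 single arrays, the lowest of the 6, and Iqgap2 had 0.89. The lowest r over group means were those of Bhlha15 (-0.94), a transcription factor of secretory cells, Sec63 (-0.93), which acts in protein import into the endoplasmic reticulum, Ncapg2 (-0.92), a condensin subunit, and Snrnp35 (-0.92), a splicing factor. The other 2 detected probes of Sec63 had r of -0.85 and -0.82, and the other probe of Ncapg2 had -0.17.

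**Figure D5:**
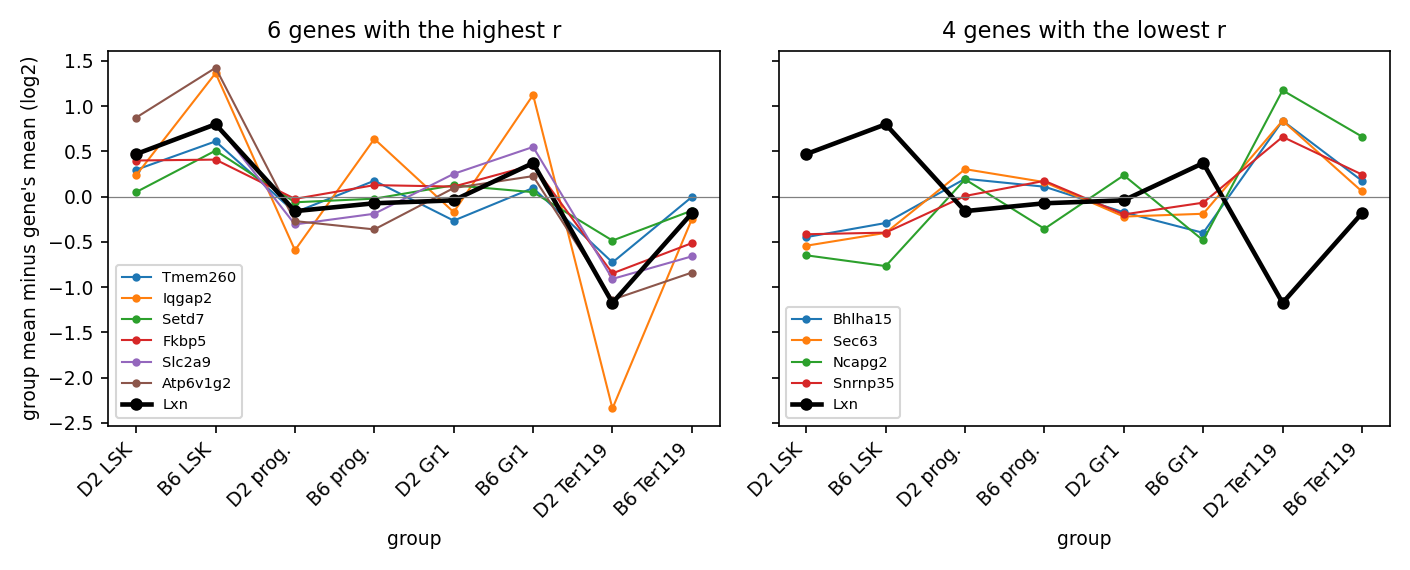
Group means minus each gene's own mean over the 8 groups (log2) for Lxn (black) and the 6 genes with the highest r (left) or the 4 with the lowest r (right). Groups run from LSK cells to Ter119+ cells with D2 before B6; Lxn is highest in B6 LSK and lowest in D2 Ter119+ cells, and the 4 genes on the right are highest in D2 Ter119+ cells.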

How the data were processed

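Per the submitters' processing notes, the arrays were read with GenomeStudio, whose version was not given in the sources used here. The deposited table holds, per the file headers, a raw intensity and a fraction per probe and array; the fraction ran as 1 minus the detection p-value, as checked against the intensities. The deposited series matrix holds log2 values that differed by at most 0.00113 from quantile-normalized log2 raw intensities. The 24 columns of presence calls were not used.

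Intensities were background-corrected (limma 3.58.1 in R 4.3.3, normexp by detection p-values, offset 16), quantile-normalized and taken to log2. A probe was kept if its detection p was below 0.01 on every array of some group, which left 12668 of 45281. Of all probes 34885 had 1 symbol in the platform annotation, 18 had several and 10378 were not listed. The 11034 kept probes with a symbol gave 7925 genes, each read by its brightest probe on average. Of these genes, 2382 had 2 or more kept probes. One limma model with a mean per group (16 residual degrees of freedom) gave all contrasts, and was tested on simulated data. The number of arrays limits the precision.

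Lxn, the gene lists and the markers were chosen with earlier results of these data known. Up to 6 members a list were named, called members with the largest change first, and the 6 highest and 4 lowest genes by likeness. Alternatives changed the background correction, scaling, probe filter, probe per gene, variance model, array weights, arrays used and covariates. Sequences and positions came from RefSeq tables, and motif searches ran in Python 3.11.15.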

Additional observations from a re-analysis of the deposited data

Results flagged for a closer look

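Il12a, near Lxn on the chromosome, had a strain difference that varied between cell types by the moderated F test (adjusted p = 2.11e-05, limma): D2 minus B6 was -0.80 in LSK cells, 0.65 in progenitors, 0.47 in Gr1+ cells and 1.32 in Ter119+ cells. This passed on leaving out any single array, with adjusted p of 1.14e-05 to 0.000142, and not under median scaling (adjusted p = 0.967, limma) or 75th percentile scaling (adjusted p = 0.311, limma).

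The same test was passed by Cpm, a membrane-bound carboxypeptidase (adjusted p = 0.0296, limma), whose strain difference was 0.25 in LSK cells, 0.04 in progenitors, 0.48 in Gr1+ cells and 1.66 in Ter119+ cells. The call was lost without B6 progenitor replicate 3 (adjusted p = 0.0546), B6 Ter119+ replicate 2 (0.0728), D2 Ter119+ replicate 2 (0.111) or D2 Ter119+ replicate 3 (0.126), all by limma. It was also lost under median and 75th percentile scaling (adjusted p = 0.967 and 0.955, limma), without the probe filter (adjusted p = 0.0942, limma) and without the 6 arrays under 20% detected (adjusted p = 0.164, limma). The cause was not tested.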

How the results depend on the processing

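The averaged strain difference of Lxn passed in all 38 alternatives, between -1.07 and -0.25. B6 LSK was the highest and D2 Ter119+ the lowest group in all 38, and the whole order of 8 was the same in 29. D2 LSK was the 7th of 8 under median scaling and the 6th under 75th percentile scaling. In both, D2 LSK replicate 2 was the lowest LSK array.

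Median scaling ended the Lxn call of D2 minus B6 in Ter119+ cells (-1.60, adjusted p = 0.165, limma). It also ended those of progenitors minus LSK cells (-0.42, 0.579), Gr1+ minus LSK cells (-0.41, 0.465) and Ter119+ minus LSK cells (-0.94, 0.103). Ter119+ cells minus progenitors (-0.52, 0.403) and Gr1+ minus Ter119+ cells (0.53, 0.354) were lost as well. Of 18 pairs of groups 2 stayed called. Of 5 listed genes called in the averaged strain contrast, Cpm, Cpxm1 and Il12a were lost. Gfm1 and Rps3, whose probes disagree, were kept. Of all 7925 genes, 1055 were called in that contrast. Under 75th percentile scaling D2 minus B6 in Ter119+ cells was -1.41 (0.0797), progenitors minus LSK cells -0.43 (0.359) and Gr1+ minus LSK cells -0.34 (0.404). Ter119+ cells minus progenitors was -0.50 (0.246) and Gr1+ minus Ter119+ cells 0.60 (0.148). There 4 pairs and 2 listed genes were called, and 1340 of all genes in the averaged contrast. Il12a's averaged difference became -0.23 and -0.0927. The cause was not tested; of called genes in the averaged strain contrast, 44.5% were higher in D2, against 6.92% and 11.3% under these scalings. Given in the same order, this share was 34.2%, 2.76% and 5.86% for LSK cells, 42.4%, 5.08% and 7.49% for progenitors, 41.2%, 30.7% and 30.8% for Gr1+ cells, and 47.6%, 8.73% and 15.2% for Ter119+ cells.

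Gr1+ cells minus progenitors came to pass without background correction (0.17, 0.0439), with offset 50 (0.21, 0.0439), from the series matrix (0.17, 0.0439), with array weights (0.27, 0.0289) and from the groups compared alone (0.28, 0.0488). Leaving out 1 array gave 0.21 to 0.35, and it passed without D2 LSK replicate 2 (0.042), B6 progenitor replicate 2 (0.0269), D2 progenitor replicate 2 (0.0459) or B6 Gr1+ replicate 1 (0.0371). Array weights also brought the strain difference in Gr1+ cells (-0.45, 0.0351) and the F test (F = 8.57, 0.00375) past the threshold. Without the 6 arrays under 20% detected, which leaves 1 array each in D2 progenitors and D2 Gr1+ cells, assumed to vary like the other groups, the strain difference in progenitors was 0.0799 and Gr1+ minus LSK cells -0.37 (0.0764). The uncalled strain difference in progenitors ran between -0.23 and 0.0498 on leaving out 1 array, with 0.0498 without B6 progenitor replicate 2. With the detected share as covariate, added after seeing the data, 3 of 5 listed genes were called, with Cpxm1 and Gfm1 lost. Of all 7925 genes, 1508 were called in that averaged contrast. All these adjusted p are limma's.

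The labels do not say that a replicate number marks a shared animal, batch or day, and the data leave pairing unsettled: deviations correlated with a mean r of 0.07 within a number, the lowest being -0.39, and -0.03 across numbers, and 13 of 24 arrays correlated best with an array of their own number, where 8 would with numbers at random. With replicate number as a block, Lxn in Ter119+ cells had an adjusted p of 0.00072 and the average 0.000913 (limma), and no call of Lxn changed. Counts of called genes moved by over 1.5 times, for the strain difference in Ter119+ cells from 1352 to 252 with median scaling, 376 with 75th percentile scaling, 3214 with array weights, 454 from the groups compared alone, and 837, 790 and 751 without B6 replicate 2, D2 replicate 2 and D2 replicate 3; for the average from 1640 to 1055 with median scaling and 2986 with array weights. Over all probes the average called 2498 of 12668 probes, a unit other than genes. Lxn was close to background in intensity, where background correction and offset set the size of a difference.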
